A study of Mus musculus with 28 samples.

Results

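The cytosolic ribosomal protein genes of the mouse were followed in the cerebellum of Ts1Cje and euploid pups over the first days after birth. A gene was taken as a member when its current symbol was Rpl or Rps followed by a number, or Rplp0, Rplp1, Rplp2 or Rpsa. Kinases of the Rps6k family, pseudogenes and mitochondrial ribosomal protein genes were left out. This gave 77 of the 23219 genes and unnamed probes of the arrays, of which 18501 had a gene symbol. By subunit, 44 members encode proteins of the large subunit and 26 proteins of the small subunit. A further 6 are paralogues of such genes (Rpl22l1, Rpl36al, Rpl39l, Rpl3l, Rpl7l1 and Rps27l). The last, Rps19bp1, meets the rule by its symbol but encodes a partner protein of Rps19 and is no ribosomal protein, so counts are also given without it. A further 12 genes that met the rule had no probe. Of the 77 members, 75 had values on enough arrays to be tested, and Rpl15 and Rps2 did not.

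Ribosomal proteins assemble with ribosomal RNA in the nucleolus into the small subunit, which reads the mRNA, and the large subunit, which joins the amino acids. The cell needs them in matched amounts, and growing and dividing cells make more of them. Many of their mRNAs begin with a C and a run of pyrimidines, the 5′ terminal oligopyrimidine or TOP tract, through which mTOR signalling adjusts their translation. In the cerebellum after birth, granule cell precursors of the external layer divide, leave the cell cycle and move inward as granule neurons.

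Ts1Cje mice carry 3 copies of a distal segment of chromosome 16. The labels give the strain of both genotypes as B6EiC3SnF1/J A/a, and Ts1Cje males were bred with wild-type females. Euploid mice served as controls. The study's methods start the triplicated segment at Sod1, and these mice are also reported to lack a part of chromosome 12. Total RNA of single whole cerebella came, for each genotype, from 6 mice at P0 (the day of birth), 8 at P3, 8 at P7 and 6 at P10. These 56 mice were hybridised once each, as 28 pairs of 1 Ts1Cje and 1 euploid mouse on 2-colour arrays. On 16 arrays, 4 for each stage, both mice were of the same age. On the other 12 they were of neighbouring stages, with 2 arrays for each of the 6 combinations. An array is named here by the age of its Ts1Cje mouse and then that of its euploid mouse, so that P7/P3 paired a P7 Ts1Cje mouse with a P3 euploid mouse. The mice of a pair were of opposite sex, which the labels do not give per mouse. On P7/P7 replicate 4, 2 labels of the euploid mouse disagreed on its stage, and it was taken as P7.

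The values are log2 ratios between the mice of an array, so a gene's level cannot be given, and neither could the labelled tissue be checked by the level of its markers. Markers of granule cell precursors (19 genes), granule neurons (14) and Purkinje cells (14) had enough values to be tested. In whole tissue, fewer cells of a type and less RNA per cell cannot be told apart. The standard deviation of all probes ranged over the arrays between 0.421 and 1.76. The number of arrays limits the precision, and 3 of them held the fewest values over all probes. These were P10/P7 replicate 2, which measured 26 members, P10/P10 replicate 4, which measured 69, and P0/P0 replicate 1, which measured 75. The titles carry 2 prefixes, ASJ on 9 arrays and ATJ on 19, whose meaning is not given.

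The members lay on 19 chromosomes. Chromosome 7 held the most, 10, and chromosome 16 held 3, of which 0 lay distal to Sod1. None was therefore a 3-copy gene by position.

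Short sequences around the annotated start of transcription are shown for 6 members, because the first base and the bases after it make up the TOP tract. They were picked among the 21 members with a sequence whose estimate at P7 was below that at P3 with an unadjusted p under 0.05. All 4 of these with the run described here are shown, and 2 of the 17 without it, so the split of the 6 does not stand for the 21. Each gives 10 bases before the start and 20 from it, in RefSeq's sequence of build GRCm38.p6 on the strand of the gene. Capitals mark an unbroken run of C and T that opens with a C at the annotated start and is at least 5 bases long. Rpl28 (chr7:4792955-4792984), Rps15a (chr7:118116128-118116157), Rpl14 (chr9:120571507-120571536) and Rpl35 (chr2:39005112-39005141) had such a run. Rpl5 (chr5:107900518-107900547) and Rps7 (chr12:28635934-28635963) had none at the annotated start.
Rpl28: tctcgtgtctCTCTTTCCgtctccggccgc
Rps15a: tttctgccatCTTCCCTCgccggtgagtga
Rpl14: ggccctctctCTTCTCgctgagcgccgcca
Rpl35: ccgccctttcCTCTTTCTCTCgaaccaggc
Rpl5: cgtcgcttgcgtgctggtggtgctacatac
Rps7: cggtttccacccacctacttccgctgtccc
A run of this kind, a C at the start followed by 4 bases that are each C or T, was looked for on the strand of the gene at that position only. It opened 13 of the 63 members with a sequence (20.6%), against 813 of all 27025 genes with one (3.01%) and 0 of 68 mitochondrial ribosomal protein genes. An annotated start can lie some bases away from the start used in the tissue, and a sequence without the run says only that these letters do not stand at the annotated base. By window, of which a gene can have several, the run opened 13 of 75 windows of the members (17.3%) and 2.51% of all windows.

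To see how the genes changed with age, the 3 steps between neighbouring stages were compared, each as the older minus the younger mouse and as the mean over both genotypes. Each step had 4 arrays of its own with different mice, 2 with the Ts1Cje mouse older and 2 with the euploid mouse older, and in each step the older mouse was on Cy5 on 2 arrays and on Cy3 on 2.

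From P3 to P7 most ribosomal protein genes had lower estimates at P7. The estimate was below 0 for 66 of the 75 members, with a median of -0.34 on the log2 scale. Over all 22225 genes and unnamed probes tested it was below 0 for 11224 (50.5%), with a median of -0.01. At an adjusted p under 0.05 in the limma fit, 1 member, Rpl22, was lower at P7 and 0 were higher, where 1.26% of everything tested passed, 0.414% lower and 0.846% higher. At an unadjusted p under 0.05, 24 members were lower and 1 was higher, where the shares over everything tested were 5.84% and 7.07%. Without Rps19bp1 and the paralogues, 62 of 68 genes of the 2 subunits were below 0 and 23 were lower at an unadjusted p under 0.05.

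The median over the members was -0.34 and -0.23 on the P7/P3 arrays and -0.55 and -0.25 on the P3/P7 arrays. All 4 arrays lay below 0, whichever genotype was the older, and the mean of their medians was -0.34 ± 0.147 (SD, n = 4). With the older mouse on Cy3 the medians ranged between -0.34 and -0.25, and with the older mouse on Cy5 between -0.55 and -0.23. On single arrays 56 of 72, 53 of 76, 66 of 76 and 58 of 68 members with a value lay below 0, in the same order. Of the 67 members measured on all 4 arrays, 34 were below 0 on each of them (50.7%), where 14.4% of all genes measured on all 4 were. Above 0 on all 4 were 2 members, Rpl37 and Rpl7l1, as were 2370 of the 16869 genes measured on all 4. P3/P7 replicate 1 was the array of this step with the prefix ASJ and had the lowest median. On the other 3 arrays, 36 of 68 members were below 0 throughout (52.9%), against 20.5% of all genes. The count of members lower at an unadjusted p under 0.05 was 10 without P3/P7 replicate 1 and 15 without P7/P3 replicate 1.

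**Figure D1:**
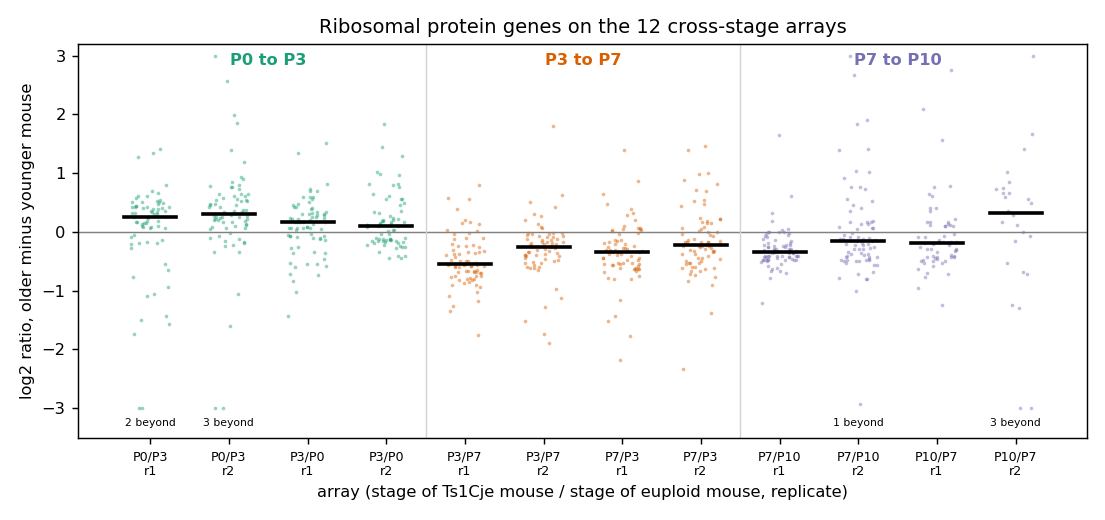
Log2 ratio of the older over the younger mouse for each ribosomal protein gene on the 12 cross-stage arrays, grouped by step. Points are genes, bars are the median of an array, and values beyond the axis are drawn at its edge and counted there. The medians of the 4 arrays between P0 and P3 lie above 0 (0.11 to 0.31) and those of the 4 arrays between P3 and P7 below 0 (-0.55 to -0.23).

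Rpl22 encodes a protein of the large subunit near the exit of the peptide tunnel. In mice lacking it most tissues develop and T cells are affected. Its ratios were -1.51 and -2.34 on the P7/P3 arrays and -0.56 and -1.52 on the P3/P7 arrays. All 4 lay below 0, although P3/P7 replicate 1 was weaker than the rest. The estimate was -1.48 ± 0.37 (SE), a 2.79-fold lower RNA at P7, with an adjusted p of 0.0493 in the limma fit. This call stood close to the threshold. It was lost under 28 of 42 alternatives, and the adjusted p ranged over the alternatives between 0.0322 and 0.270. Among those that lost it was leaving out P7/P7 replicate 4, the array with conflicting stage labels. There the estimate stayed at -1.48, and the adjusted p in the limma fit was 0.0653. Between P0 and P3 its estimate was 0.04 ± 0.37, and between P7 and P10 it was 0.42 ± 0.43.

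Rpl5 and Rpl11 join the 5S ribosomal RNA in a small particle that enters the large subunit, and free of the ribosome they bind Mdm2, which keeps p53 low. Rpl5 had ratios of -0.63 and -0.60 on the P7/P3 arrays and -1.08 and -0.44 on the P3/P7 arrays. Rpl11 had -0.61 and -0.83 on the P7/P3 arrays and -0.66 and -0.47 on the P3/P7 arrays. For both genes no array reached 0. The estimates were -0.69 ± 0.20 (SE) for Rpl5 and -0.64 ± 0.22 for Rpl11, with adjusted p of 0.0927 and 0.158 in the limma fit. Rpl23, which also binds Mdm2, was measured on 2 arrays of the step, at 0.65 on P7/P3 replicate 1 and 0.58 on P3/P7 replicate 1, and its estimate was 0.61 ± 0.65 (adjusted p = 0.789) and 0.39 without P3/P7 replicate 1.

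Rpl28 of the large subunit and Rps7 and Rps15a of the small subunit were among the members with the smallest p. Rpl28 had ratios of -0.54, -0.46, -0.67 and -0.23, and its estimate was -0.48 ± 0.14 (SE), 1.39-fold lower (adjusted p = 0.101). Rps7, whose human gene is among those mutated in Diamond-Blackfan anaemia, had -0.75, -0.41, -0.52 and -0.52, and an estimate of -0.55 ± 0.16 (adjusted p = 0.101). Rps15a had -0.28, -0.50, -1.17 and -0.57, and an estimate of -0.63 ± 0.20 (adjusted p = 0.136). For these 3 genes, given with the P7/P3 arrays before the P3/P7 arrays, every array was below 0, and the spread between arrays was smallest in Rps7. Rps7 and Rps15a were chosen for the text after their values were seen.

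The members at the exit tunnel, through which the new chain leaves the ribosome, were below 0 for 7 of 8, with a median of -0.29. Besides Rpl22 they include Rpl17, measured with 2 probes that gave like values on most arrays (r = 0.82 over 25 arrays, the same sign on 21). Rpl17 had ratios of -0.63 and -0.66 on the P7/P3 arrays and -0.54 and -0.30 on the P3/P7 arrays, and an estimate of -0.53 ± 0.18 (adjusted p = 0.165). Of the 16 tested members whose human genes are linked to Diamond-Blackfan anaemia, a failure of red cell formation, 15 were below 0, with a median of -0.27. Both medians were nearer to 0 than that of the whole set, and 38 of 43 large subunit genes (median -0.37) and 24 of 25 small subunit genes (median -0.34) lay below 0.

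The 4 genes of the stalk, which draws translation factors to the large subunit, had estimates on both sides of 0. Rplp0, the base of the stalk, had ratios of -0.16 and -1.38 on the P7/P3 arrays and -0.77 and 0.63 on the P3/P7 arrays. Rplp1 had -1.16, 0.53, -0.36 and -0.97 in the same order. Both crossed 0 and had wide errors, with estimates of -0.42 ± 0.72 and -0.49 ± 0.26 (adjusted p = 0.896 and 0.440). When single arrays were left out, the estimate lay between -0.76 and -0.11 for Rplp0 and between -0.89 and -0.26 for Rplp1. Rplp2 (0.11 ± 0.23) and Rpl12 (0.21 ± 0.61) were above 0 (adjusted p = 0.917 and 0.947). Both were below 0 when the same fit gave the step for euploid mice instead of the mean over both genotypes. Without P7/P3 replicate 2, Rplp2 was at 0.049 and Rpl12 at -0.15.

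The paralogues were below 0 for 3 of 6, with a median of 0.01. Rpl7l1, a paralogue of Rpl7, had ratios of 1.39 and 0.99 on the P7/P3 arrays and 0.17 and 1.80 on the P3/P7 arrays. It was above 0 on all 4 and was the member that was higher at an unadjusted p under 0.05, with an estimate of 1.09 ± 0.37 (SE, adjusted p = 0.173). Rpl3l, the striated muscle paralogue of Rpl3, had an estimate of 0.33 ± 0.38 (adjusted p = 0.817), which lay between 0.21 and 0.51 when single arrays were left out. Rps19bp1 had the lowest estimate of all members, -1.58 ± 0.47 (adjusted p = 0.111), with ratios of -1.78 and -0.90 on the P7/P3 arrays and -1.75 and -1.88 on the P3/P7 arrays. Rpl37 was above 0 on all 4 arrays too (0.20 to 1.40), but its estimate of 0.69 ± 0.84 was within its error.

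**Figure D2:**
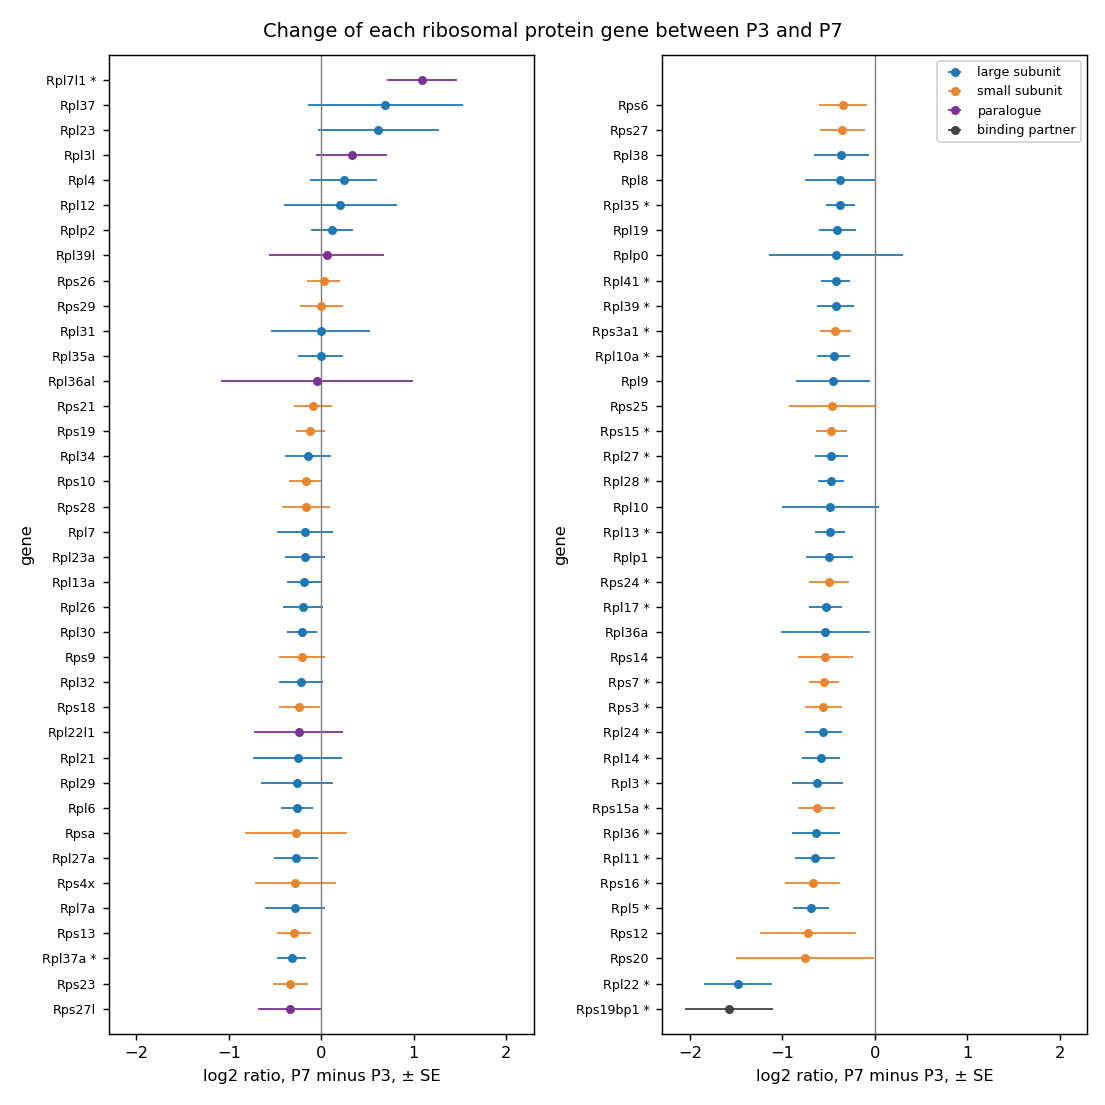
Estimated log2 difference of P7 minus P3 for the 75 tested ribosomal protein genes, ordered by size, with bars of 1 SE and colours for large subunit, small subunit, paralogues and the binding partner. Asterisks mark an unadjusted p under 0.05, which 24 genes below 0 and 1 above 0 (Rpl7l1) reached, and 66 of the 75 estimates lie below 0.

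Members with and without the pyrimidine run at the annotated start had medians close to each other. Members without the run there can still carry a tract some bases away. The split therefore cannot show whether TOP mRNAs differ from other mRNAs. The median from P3 to P7 was -0.35 over 12 tested members with it, of which 11 were below 0, and -0.34 over 49 without it, of which 41 were below 0. Rpl28 and Rps15a, with a run, and Rpl5 and Rps7, without one, had estimates between -0.69 and -0.48.

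From P0 to P3 most members had estimates above 0, with none past the adjusted threshold. The estimate was below 0 for 16 of 75, against 50.2% of everything tested, and the median was 0.22, or 0.14 without P0/P3 replicate 2. With 0 members called in the limma fit, where 0.0360% of everything tested was, 4 members were higher and 2 lower at an unadjusted p under 0.05, against 3.77% and 3.48% of everything tested. The median over the members was 0.16 and 0.11 on the P3/P0 arrays and 0.25 and 0.31 on the P0/P3 arrays, so that all 4 lay above 0, with a mean of 0.21 ± 0.0911 (SD, n = 4). Above 0 on all 4 arrays were 12 of 65 members (18.5%), where 6.89% of all genes were. On the 3 arrays of prefix ATJ, 23 of 68 members were above 0 throughout (33.8%), against 13.4% of all genes.

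Rpl27a, a protein of the large subunit, had the lowest p of this step. Its ratios were 1.52 and 0.81 on the P3/P0 arrays and 1.34 and 0.52 on the P0/P3 arrays. All 4 lay above 0, and the estimate was 1.05 ± 0.23 (SE), 2.07-fold higher at P3 (adjusted p = 0.113). Rps19, the first gene linked to Diamond-Blackfan anaemia, had 0.17, 0.80, 0.30 and 0.65 in the same order, and Rpl39, which lines the exit tunnel, had 0.69, 0.14, 0.07 and 1.19. Both were above 0 throughout, with estimates of 0.48 ± 0.16 and 0.52 ± 0.20 (adjusted p = 0.453 and 0.564), and Rpl39 was at 0.28 without P0/P3 replicate 2. Below 0 with an unadjusted p under 0.05 were 2 paralogues. Rpl7l1 had -1.02 and -0.11 on the P3/P0 arrays and -0.08 and -3.11 on the P0/P3 arrays (estimate -1.08 ± 0.37, adjusted p = 0.476), and its estimate was -0.35 without P0/P3 replicate 2. Rpl39l, a testis paralogue of Rpl39, was measured on 2 arrays of the step, at 0.25 and -3.70 on the P0/P3 arrays, and its estimate of -2.11 ± 0.97 ranged between -4.09 and -0.14 when single arrays were left out. Rpl23 had -3.63 on P0/P3 replicate 1 and between -0.44 and 0.73 on the other 3 (estimate -0.73 ± 0.46, adjusted p = 0.837), and its estimate was 0.22 without that array.

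Whether the step from P3 to P7 differed from that before it was tested gene by gene in the limma fit, a comparison added after the data were seen. Where a member was measured on all arrays of both steps, each step was estimated from its own arrays, which carried different mice. The difference was below 0 for 66 of 75 members, against 51.2% of everything tested, with a median of -0.57, and 0 members passed the adjusted threshold, where 0.954% of everything tested did. At an unadjusted p under 0.05, 20 members were below 0 and 1 above it, where the shares over everything tested were 5.95% and 6.71%. The smallest adjusted p were those of Rpl7l1 (2.17, adjusted p = 0.0507) and Rpl27a (-1.32, adjusted p = 0.0531), both close to the threshold. The count of 0 was 3 without P10/P7 replicate 2 or P10/P10 replicate 4, 2 without P3/P3 replicate 2, and up to 8 under other alternatives, so that it rests on the fit chosen. The difference for Rpl7l1 was 1.44 without P0/P3 replicate 2.

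**Figure D3:**
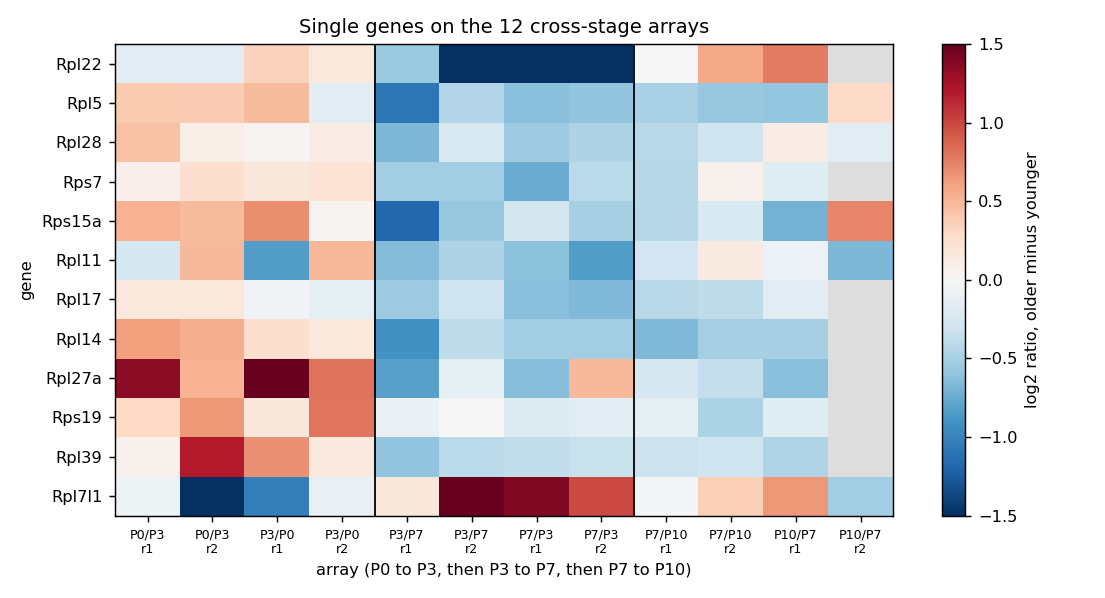
Heat map of the log2 ratio of the older over the younger mouse for 12 ribosomal protein genes on the 12 cross-stage arrays, grouped by step, with grey where an array gave no value. Rpl22, Rpl5, Rpl28, Rps7, Rps15a, Rpl11, Rpl17 and Rpl14 are below 0 on each array between P3 and P7, and Rpl7l1 is above 0 on each of them.

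From P7 to P10 the estimate was below 0 for 53 of 75 members, against 48.6% of everything tested, with a median of -0.19, or -0.12 without P7/P10 replicate 1. None was called in the limma fit (0 members), where 0.00450% of everything tested was, and 7 were lower and 1 higher at an unadjusted p under 0.05, where the shares over everything tested were 3.91% and 5.18%. The count of 7 was 2 without P7/P10 replicate 1, when 1 member passed the adjusted threshold, and 3 without P7/P10 replicate 2. The array medians were -0.18 and 0.33 on the P10/P7 arrays and -0.33 and -0.16 on the P7/P10 arrays. The one above 0 was P10/P7 replicate 2, with few values. Only 23 members were measured on all 4 arrays, of which 1 was below 0 on each (4.35%), where 6.72% of all genes were.

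Single genes of this step often rested on 1 array. Rpl8, a protein of the large subunit near its catalytic centre, had -0.50 and -4.53 on the P10/P7 arrays and -0.33 and -0.68 on the P7/P10 arrays. Its estimate was -1.51 ± 0.39 (SE, adjusted p = 0.180), and -0.52 without P10/P7 replicate 2. Rpl31 had 0.17 on P10/P7 replicate 1 and -0.22 and 4.13 on the P7/P10 arrays, and its estimate of 1.38 ± 0.63 was -0.03 without P7/P10 replicate 2. Rps3a1, of the small subunit, was below 0 on the 3 arrays that measured it, at -0.53 on P10/P7 replicate 1 and -0.67 and -0.45 on the P7/P10 arrays. Its estimate was -0.53 ± 0.20 (adjusted p = 0.374). Rpl21 had -1.25, -0.24 and -2.93 on the same 3 arrays (estimate -1.41 ± 0.48, adjusted p = 0.342), and its estimate was -0.74 without P7/P10 replicate 2.

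Between P0 and P10, the sum of the 3 steps, 53 of 75 members were below 0, against 48.9% of everything tested, with a median of -0.42. Again 0 were called in the limma fit, where 0.0450% of everything tested was, and 13 were lower and 1 higher at an unadjusted p under 0.05, where 3.69% and 4.37% of everything tested were. The count of 13 was 5 without P7/P10 replicate 1, 8 without P7/P10 replicate 2, 6 without either P3/P0 array, and 7 without P0/P3 replicate 2, P7/P3 replicate 1 or P3/P7 replicate 1. Rpl17 (-0.87 ± 0.33), Rpl41 (-0.72 ± 0.29), Rpl11 (-0.90 ± 0.37), Rpl8 (-1.56 ± 0.67) and Rpl37a (-0.65 ± 0.28) had the smallest p among those below 0. Above 0 these were Rpl31 (2.12 ± 0.98), Rpl4 (1.16 ± 0.66), Rpl3l (1.19 ± 0.70), Rps27l (0.63 ± 0.64) and Rpsa (0.90 ± 0.96), with errors as SE. Several of these rested on 1 array. Below 0, Rpl8 was at -0.56 without P10/P7 replicate 2 and Rpl11 at -0.60 without P3/P0 replicate 1. Above 0, Rpl31 was at 0.71 without P7/P10 replicate 2 and Rpl3l at 0.20 without P10/P7 replicate 1. Without P0/P3 replicate 2, Rpl4 was at 0.35, Rps27l at 0.30 and Rpsa at -0.24. The lowest adjusted p of these genes was that of Rpl17, 0.526.

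Genes that work with the ribosome were set beside its proteins. Between P3 and P7, elongation factors and other TOP mRNAs were below 0 for 15 of 18 genes tested, with a median of -0.33. Of these Vim (-1.15), an intermediate filament protein whose mRNA carries a TOP tract, Eef1b2 (-0.85), a subunit of the elongation factor that loads tRNA, and Eif3f (-0.81), a subunit of an initiation factor, were lower in the limma fit (adjusted p = 0.00198, 0.0112 and 0.0309). Eif3f was counted in that list and not among the initiation factors that follow. These other initiation factors were below 0 for 24 of 32, with a median of -0.38. Of them 9 were lower at an unadjusted p under 0.05 and 0 at an adjusted one. Genes of ribosome biogenesis were split, 32 of 54 below 0 with a median of -0.09. Among them Nop56, a box C/D snoRNP protein, was lower (-0.63), and Ebna1bp2 (0.86) and Ddx56 (1.34) were higher in the limma fit. The genes that control ribosomal protein synthesis, of the mTOR pathway among others, were below 0 for 15 of 25 with a median of -0.03 and 0 called, although Mtor itself had an estimate of -2.35 ± 0.65 (adjusted p = 0.0776). These genes were named after their values were seen.

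Mitochondria have ribosomes of their own. Of their 77 protein genes tested, 46 were below 0 between P3 and P7, with a median of -0.13, and Mrpl12 (0.77) and Mrpl45 (0.74) were higher in the limma fit (adjusted p = 0.0136 and 0.0444). Between P0 and P3 the median was 0.22 for the cytosolic genes and 0.02 for the mitochondrial ones, and between P7 and P10 it was -0.19 for the cytosolic genes and 0.08 for the mitochondrial ones.

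**Figure D4:**
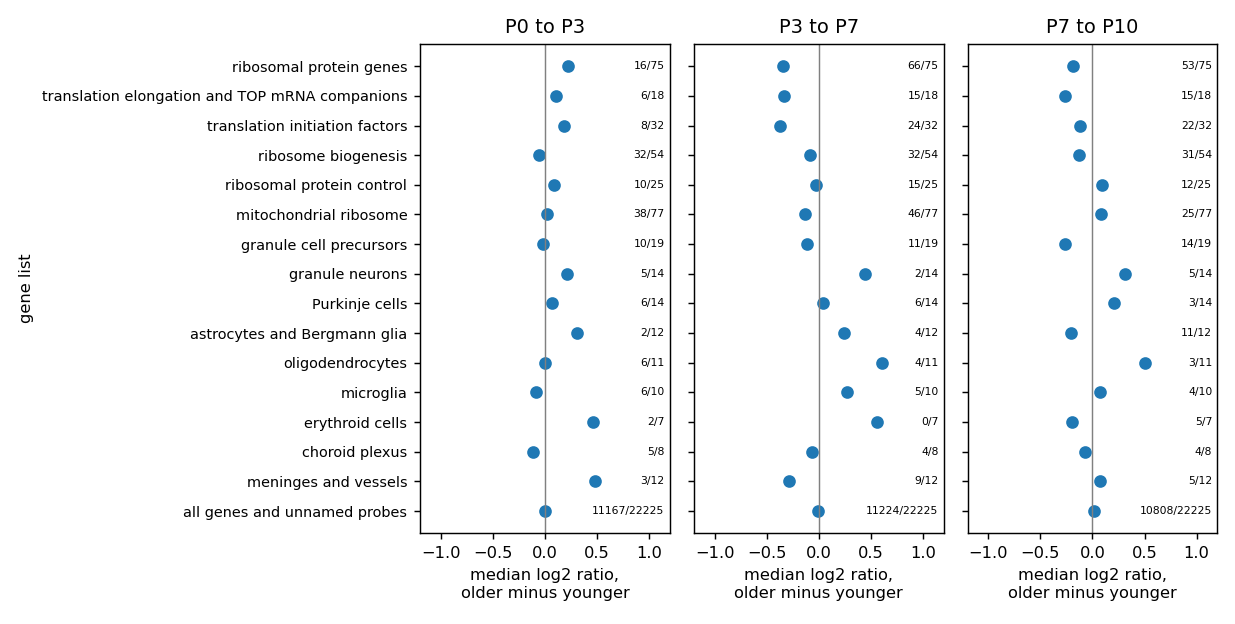
Median log2 difference of the older minus the younger stage over the genes of each list, for the 3 steps, with the number of genes below 0 and the number tested beside each point. Between P3 and P7 the medians of ribosomal protein genes (-0.34), elongation and TOP mRNA companions (-0.33) and initiation factors (-0.38) lie below that of all genes and unnamed probes (-0.01). Meninges and vessels (-0.28), mitochondrial ribosome (-0.13), granule cell precursors (-0.11), ribosome biogenesis (-0.09), choroid plexus (-0.07) and ribosomal protein control (-0.03) also lie below it. The lists of granule neurons, Purkinje cells, astrocytes, oligodendrocytes, microglia and erythroid cells lie above it.

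Markers of cell types moved over the same step, and their part in the result was not tested. Of the granule cell precursor markers 11 of 19 were below 0, with a median of -0.11. At an unadjusted p under 0.05, 2 of them were lower and 3 higher, where 5.84% and 7.07% of everything tested were. Ccnd1 (-2.45) and Pcna (-0.78), which drive the cell cycle and DNA replication, were lower in the limma fit. Mki67, another gene of dividing cells, had an estimate of 0.54 ± 0.21 (adjusted p = 0.226). Granule neuron markers were above 0 for 12 of 14, with Neurod1 higher by 0.97. Astrocyte markers were above 0 for 8 of 12 (median 0.24), oligodendrocyte markers for 7 of 11 (median 0.61), and vessel and meningeal markers below 0 for 9 of 12 (median -0.28). Among glia and vessels, Aqp4 (1.64) and Gfap (1.73) of astrocytes and Mbp (2.50) of myelin were higher, and Olig1 (-0.90) of oligodendrocyte precursors and Pecam1 (-1.13) of vessels lower. Purkinje cell markers were below 0 for 6 of 14, with a median of 0.05, and Foxp2 (-1.89) was the 1 of them that was lower in the limma fit. All 7 erythroid markers tested were above 0, with a median of 0.56, and on the single arrays their median was 0.83 and 0.26 on the P7/P3 arrays and 0.95 and 0.12 on the P3/P7 arrays. The 10 microglia markers had a median of 0.27 with 5 below 0. At an unadjusted p under 0.05, 5 of these 10 were higher and 0 lower.

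To find genes changed by the trisomy, Ts1Cje was compared with euploid over all stages and at each stage. The mean trisomy effect, Ts1Cje minus euploid averaged over the 4 stages, was small in the ribosomal protein genes. As the mice of a pair were of opposite sex, each ratio also compares the sexes. Sex could not be fitted, and 4 members lie on chromosome X. In the limma fit 0 of 75 members were called, where 0.0180% of everything tested was. At an unadjusted p under 0.05, 1 was higher and 3 lower, where 1.95% and 2.13% of everything tested were. The count of 3 lay between 0 and 8 when single arrays were left out, at 0 without P3/P7 replicate 2 or P7/P7 replicate 4 and at 8 without P10/P10 replicate 2. By sign 51 of 75 were below 0, with a median of -0.06, against 11235 of 22225 (50.6%) over everything tested.

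The array medians of the 16 same-stage arrays lay between -0.47 and 0.22, with an SD of 0.170, and 13 of them were below 0. On the 6 arrays of prefix ASJ, 4 medians were below 0 with a mean of -0.02, and on the 10 of prefix ATJ, 9 were below 0 with a mean of -0.13.

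**Figure D5:**
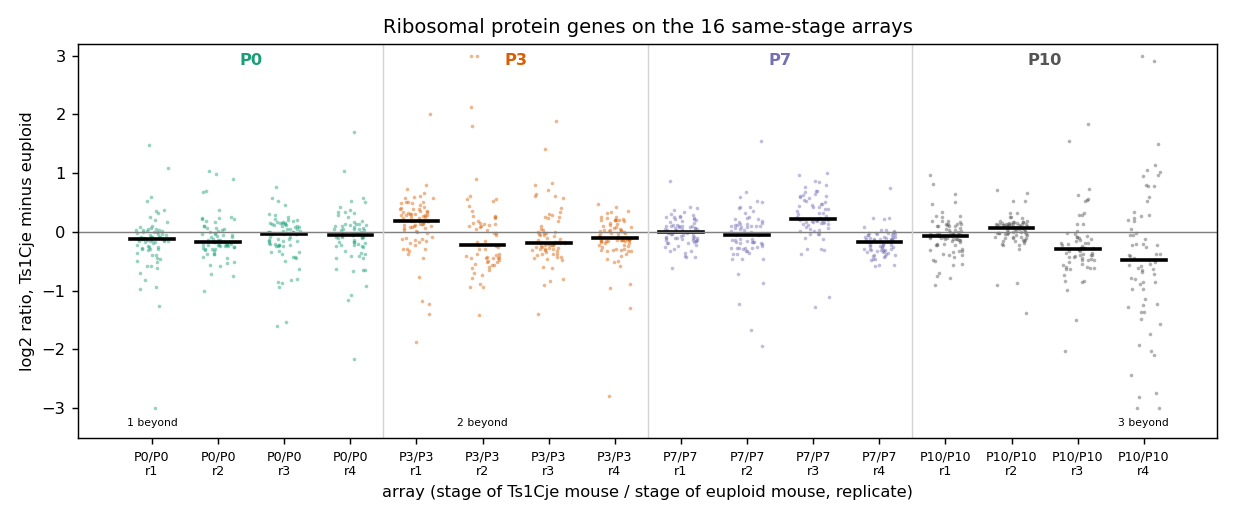
Log2 ratio of Ts1Cje over euploid for each ribosomal protein gene on the 16 same-stage arrays, grouped by stage. Points are genes, bars are the median of an array, and values beyond the axis are drawn at its edge and counted there. The medians lie between -0.47 (P10/P10 replicate 4) and 0.22 (P7/P7 replicate 3), with all 4 below 0 at P0.

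The members with the lowest p did not form a group. Rpl3l had a mean trisomy effect of 0.36 ± 0.15 (SE) and Rps27l, a paralogue of Rps27 and a target of p53, of -0.31 ± 0.14, and Rplp0 (-0.64 ± 0.30) and Rpl3 (-0.23 ± 0.11) were below 0, all 4 with an unadjusted p under 0.05. Rplp0 was at -0.24 without P0/P0 replicate 1, and Rpl3l at 0.21 without P10/P7 replicate 1. Rpl21 (0.29 ± 0.18) and Rpl36 (0.15 ± 0.09) of the large subunit followed above 0, and Rpl6 (-0.14 ± 0.07) and Rps7 (-0.13 ± 0.06) below 0. Rpl36 was at 0.085 without P10/P7 replicate 1 and Rps7 at -0.081 without P10/P10 replicate 4. Each of these had an adjusted p of 0.993. The interval for Rps7, whose step from P3 to P7 was even over the arrays, ran from -0.26 to 0.01. Rpl22 had -0.11 ± 0.15, with an interval between -0.43 and 0.21.

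At P0 the members were mostly below 0, 57 of 75, against 50.5% of everything tested, with a median of -0.13, or -0.085 without P3/P0 replicate 1 and -0.081 without P0/P3 replicate 2. The limma fit called 0, as of everything tested (0%), and 3 were lower and 0 higher at an unadjusted p under 0.05, where 2.12% and 2.31% of everything tested were. The count of 3 was 1 without P0/P0 replicate 1. The 4 array medians were -0.12, -0.17, -0.03 and -0.05, and 8 of 62 members were below 0 on all 4 arrays (12.9%), where 6.37% of all genes were. On the 3 arrays other than P0/P0 replicate 1, 13 of 63 were (20.6%), against 12.2% of all genes. Rpl19 of the large subunit had ratios of -0.23, -0.22, -0.81 and -0.93, all below 0, and an estimate of -0.47 ± 0.18. Rpl6 had -0.97, -0.56, -0.00 and 0.08, and an estimate of -0.35 ± 0.16, or -0.19 without P0/P0 replicate 1. Rplp0 had -7.06, -0.75 and -0.81 on the 3 arrays that measured it, so that its estimate of -2.50 ± 0.77 was set by P0/P0 replicate 1 and was -0.73 without it.

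At P3, 42 of 75 members were below 0 (49.3% of everything tested), with a median of -0.03, and at P7, 27 were below 0 (51.3% of everything tested), with a median of 0.06. When single arrays were left out the median lay between -0.074 and 0.0043 at P3 and between 0.020 and 0.12 at P7. No member was called at either stage in the limma fit, where 0.00450% and 0% of everything tested were. At an unadjusted p under 0.05 the counts were 1 lower and 0 higher at P3, where 2.67% and 2.94% of everything tested were, and 0 in either direction at P7, where 0.868% and 0.864% were. The arrays of a stage went different ways. At P7, 57 of 68 members were above 0 on P7/P7 replicate 3 (median 0.22), and 61 of 69 were below 0 on P7/P7 replicate 4 (median -0.17). Replicate 4 is the array with conflicting stage labels of its euploid mouse. Without it the P7 median of the fit was 0.12. The medians on P7/P7 replicates 1 and 2 were -0.0004 and -0.05, so that 3 of the 4 lay below 0. The P7 estimates of the fit draw on the cross-stage arrays as well. At P3 the median was 0.19 on P3/P3 replicate 1 and between -0.22 and -0.11 on the other 3. Rps3a1 was the member with an unadjusted p under 0.05 at P3, at 0.20, -0.69, -0.39 and -0.09 (estimate -0.31 ± 0.14, adjusted p = 0.868), and its arrays crossed 0. Rps15a at P7 had 0.22, 0.22, 0.58 and -0.10, and an estimate of 0.29 ± 0.17.

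At P10, 53 of 75 members were below 0, against 50.7% of everything tested, with a median of -0.14, or -0.078 without P10/P10 replicate 4. By the limma fit 0 were called, as of everything tested (0%), and 8 were lower and 1 higher at an unadjusted p under 0.05, where 2.78% and 2.43% of everything tested were. Of 57 members on all 4 arrays 10 were below 0 on each (17.5%), where 6.19% of all genes were. On the 3 arrays other than P10/P10 replicate 4, 13 of 65 were, against 12.6% of all genes. The array medians were -0.07 and 0.07 on replicates 1 and 2, which have the prefix ASJ and Ts1Cje on Cy3, and -0.28 and -0.47 on replicates 3 and 4, which have the prefix ATJ and Ts1Cje on Cy5. Dye and prefix cannot be told apart at this stage, nor at P0. Rps23 of the small subunit had ratios of -0.71, 0.10, -0.98 and -0.48, and an estimate of -0.48 ± 0.18. Rps7 had -0.34, -0.09, -0.21 and -1.14, and an estimate of -0.40 ± 0.15 (adjusted p = 0.942 for both), and Rps7 was at -0.19 without P10/P10 replicate 4. The count of 8 was 1 without P10/P10 replicate 4, an array with few values over all probes. It was 5 without P10/P10 replicate 3 and 14 without P10/P10 replicate 2. Rpl7a was at 2.91 on P10/P10 replicate 4 and between -0.43 and 0.10 on the others.

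The trisomy effect did not differ between the stages for any member at an adjusted p under 0.05 in the limma fit, where 0% of everything tested did, and 0 members did so at an unadjusted p under 0.05, against 3.08% of everything tested.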

How the data were processed

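Per the labels and the study's methods, the authors subtracted the background from median pixel intensities of 2-colour spotted arrays, dropped controls, irregular features and features close to background (missing here), and applied local LOWESS within each array. Their deposited unit is the log2 ratio, Cy5 over Cy3, which was used unchanged.

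Of 25344 probes, 20626 had 1 gene symbol in the annotation given, 0 several and 4718 none. Symbols were made current through RefSeq, with 15685 by accession. Of the named probes, 257 spots of 1 symbol present in over 100 copies were left out as controls. Probes of a gene were averaged. Genes with at least 14 arrays and 5 residual degrees of freedom were tested, 22225 of them, and 994 were not. Each was fitted by the 7-parameter ANOVA of the study (development and a trisomy effect per stage) with the moderated test of limma 3.58.1 in R 4.3.3 (prior degrees of freedom 2.74), adjusted by Benjamini-Hochberg over all of them. Tables and plots were made in Python 3.11.15 (numpy 2.4.6, pandas 2.3.3, scipy 1.17.1, matplotlib 3.10.9). The fit was tested on simulated data. The arrays carry different mice, so p-values reflect mice and arrays together.

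Per contrast, members past an adjusted p of 0.05 were named, or else those of smallest p in each direction, with the stalk genes, Rpl5, Rpl11 and genes whose probes disagree. The members and lists were chosen with earlier results of these data known. Of the alternatives, leaving out the 3 arrays with the fewest values, using only ATJ arrays and those of the difference between steps were added after the data were seen.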

Additional observations from a re-analysis of the deposited data

Results flagged for a closer look

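In groups of 4 arrays, 45 of which were examined for the named members, chance sets 1 array apart in about 1 group of 20 by the test used, Dixon's ratio at its 95% critical value. Rpl36al had a ratio of 6.32 (Ts1Cje over euploid, log2) on P3/P3 replicate 2, where the other 3 arrays lay between -0.10 and 0.11. Rpl7a had 2.91 on P10/P10 replicate 4, where the others lay between -0.43 and 0.10. Rpl8 had -4.53 on P10/P7 replicate 2 (P10 over P7), where the others lay between -0.68 and -0.33. The last 2 arrays are among the 3 with the fewest values.

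The mean of the array medians over the ribosomal protein genes was above 0 between P0 and P3 (0.21, above 0 on all 4 arrays) and below 0 between P3 and P7 (-0.34, below 0 on all 4 arrays). The difference between the steps was not tested for the set as a whole, and gene by gene 0 members passed the adjusted threshold, with up to 8 under alternatives.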

How the results depend on the processing

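No paired analysis was possible because the array numbers were given in accession order and pair no mice across groups, while each array already pairs 1 Ts1Cje with 1 euploid mouse. Litters, by which the study identified its samples, were not tied to arrays here and were not fitted as a block. The number of members past the adjusted threshold between P3 and P7, 1 in the report, was 2 with a dye term, 5 in the ANOVA without moderation, 11 with array weights and 5 when the 3 arrays that held fewest values were dropped. It was 0 with arrays scaled to one median absolute deviation, centred on their median, without the array of conflicting stage labels, with the 12 cross-stage arrays only, with euploid mice only and with ATJ arrays only, and 0 to 2 when single arrays were left out. Between P7 and P10 it was 1 with a dye term per title prefix and 0 to 1 when single arrays were left out. For the difference between the steps P3 to P7 and P0 to P3 it was 0 in the report, 4 with a dye term, 8 without moderation, 1 with centred arrays, 3 with array weights, 3 with values on at least 24 arrays, 7 without the 3 arrays and 0 to 3 when single arrays were left out. It stayed at 0 under every alternative run for the mean trisomy effect, the trisomy effect at each stage and between stages, and from P0 to P3 and P0 to P10. The member median ranged between -0.39 and -0.25 from P3 to P7 and between 0.14 and 0.25 from P0 to P3 when single arrays were left out, and the P0 trisomy median was -0.056 with the 16 same-stage arrays only. For the mean trisomy effect, Rplp2 was -0.014 with scaled arrays, -0.075 with array weights and -0.072 without the 3 arrays, Rpl12 was -0.36 with the same-stage arrays, and Rpl11 was -0.0034 with a dye term per prefix and -0.023 with weights. At P7 Rpl37 was 0.024 with weights, and at P10 Rpl7a was -0.027 with weights and -0.16 without the 3 arrays. With euploid mice only, Rplp2 was -0.083 and Rpl12 -0.056 from P3 to P7, and Rplp0 was -0.59 and Rplp2 -0.087 from P0 to P10, where Rplp2 was also -0.035 scaled, -0.17 with weights and -0.065 without the 3 arrays. Leaving out single arrays turned the sign of Rpl12 (-1.32 to 0.83), Rplp2 (-0.12 to 0.27) and Rpsa (-0.24 to 1.72) from P0 to P10, of Rpl23 (-1.40 to 0.22) from P0 to P3, of Rpl12 (-0.15 to 0.44) from P3 to P7, of Rpl31 (-0.026 to 2.36) and Rpl3l (-0.079 to 1.38) from P7 to P10, of Rpl7a (-0.16 to 0.77) at P10, and of Rpl11 (-0.028 to 0.045), Rpl12 (-0.17 to 0.14) and Rplp2 (-0.059 to 0.046) in the mean trisomy effect. The causes were not tested.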

Other observations

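After the fit, the residuals of the 75 tested members varied together to a modest degree. Over 2728 pairs of members the median correlation of residuals across arrays was 0.09. Against the median of the other members, 59 of 75 had a correlation above 0, with a median of 0.28. Rpl24 (0.89 over 27 arrays) and Rps27 (0.86 over 28 arrays), of the large and the small subunit, were nearest to the rest, and Rpl37 (-0.45) and Rpl21 (-0.44) were farthest from it. These are descriptions across arrays, which share the labelling and normalization of all genes of an array. The same correlations were not computed for other genes, so they cannot be called particular to the members.

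A dye effect passed an adjusted p of 0.05 in the limma fit with a dye term for 5 members (Rpl26 and Rpl5 below 0, Rpl3l, Rpl4 and Rps16 above 0), as for 1781 of the 22225 genes and unnamed probes tested. For Rpl5 it was -0.22, and Rpl5 was below 0 on all 4 arrays between P3 and P7, 2 with the older mouse on either dye.

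Rps18 was measured by 2 probes that went apart. Their ratios had the same sign on 9 of 24 arrays (r = -0.08), with a median absolute difference of 0.554, against 0.164 for the probes of Rpl17. One of the Rps18 probes was named by its symbol alone.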
